A study of Rattus norvegicus with 4 samples.

Results

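Of 81097 regions of open chromatin called in all 4 libraries of rat retinal ganglion cells (RGCs), 19317 (23.8%) were strong and compact and held the same rank on embryonic day 21 (E21) as on postnatal day 11 (P11). They were chosen by measured values. Each open chromatin region (OCR) was ranked within its own list by the −log10 of its q value, as a percentile from 0 to 100, and overlapping OCRs of the 4 lists were merged into 224715 regions on the 20 numbered chromosomes. A member was under 2000 bp wide, stood at percentile 75 or higher in every library, and had E21 and P11 mean percentiles less than 10 points apart. Ranks, fold enrichment and widths therefore come from the contrast that chose the members and are given as a description, with no test.

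The cells were RGCs immunopanned from the retinas of Sprague Dawley rats, with 2 libraries at E21 and 2 at P11, each from a separate litter and from a preparation of 300000 frozen cells. The labels name no agent or allele for either stage. Each preparation pooled the cells of a litter, and the identity of the cells could not be checked against marker genes, since an annotation of the lists' build (rn6) was not used here. For the same reason no region below is assigned to a gene. The lists held 123707 OCRs in E21 replicate 1, 151816 in E21 replicate 2, 152301 in P11 replicate 1 and 163714 in P11 replicate 2.

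RGCs send the axons of the optic nerve to the brain, and their capacity to extend axons falls around birth. ATAC-seq marks DNA that a transposase can reach. Such DNA lies mostly at promoters, enhancers and insulators, where bound proteins displace nucleosomes. Strong sites that stay open through development are often promoters of broadly used genes or binding sites of architectural proteins, whereas sites that open or close with age are more often distal enhancers. In bulk libraries, a region open in fewer cells and a region less open in each cell cannot be told apart.

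The strongest members stood at or next to the top of all 4 lists. The member of highest mean percentile, chr4:77447576-77448625 (1050 bp, rn6), was the first OCR of every list, at percentile 100 in each. Its summit was covered by 6120 and 6149 fragments in the E21 libraries and by 4945 and 4759 in the P11 libraries, here and below in the order replicate 1, replicate 2. Its fold enrichment, the summit pileup over the local background, was 18.0 and 17.1 at E21 against 17.9 and 17.4 at P11, so the stages overlapped in fold although every E21 pileup was above every P11 pileup. The local background around it was 64.2 to 71.4 times the genome-wide background of the library, the highest of any member. Whether reads map in excess to such stretches was not tested, which bears also on the third and the fourth member below.

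The next member, chr1:180644555-180645236, had pileups of 2064 and 1798 at E21 and 2103 and 1799 at P11. Its fold was 27.5 and 27.3 at E21 against 25.9 and 25.1 at P11, lower in both P11 libraries. Its summit fell on the same base, 364 bp from the start of the region, in all 4 libraries. The third, chr9:8282657-8283499, had a fold of 15.8 and 15.3 at E21 and of 13.9 and 15.0 at P11, again lower in both P11 libraries by a small margin.

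The fourth, chr19:56337672-56339361, went the other way, with a fold of 13.6 and 13.1 at E21 and 16.8 and 17.1 at P11. Its pileup was nevertheless higher at E21, at 1694 and 1850 fragments against 1624 and 1533, and its local background was 25.7 and 28.0 times the genome-wide level at E21 and 22.3 and 21.3 times at P11. These pileups are fragment counts not scaled for depth. The genome-wide background was also higher at E21, at 4.80 and 5.03 fragments against 4.30 and 4.17 at P11. The order of the stages by unscaled pileup therefore cannot be set against the order by fold. The fifth, chr9:12093712-12094352, had a fold of 24.1 and 24.04 at E21 and 25.5 and 25.7 at P11. The sixth, chr2:198589786-198590317, held the highest fold of all members in 3 libraries, at 48.3 and 43.7 at E21 and 46.3 and 51.3 at P11, with overlapping stages. It was the only one of the 6 whose local background was under 4 times the genome-wide level in every library.

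**Figure D1:**
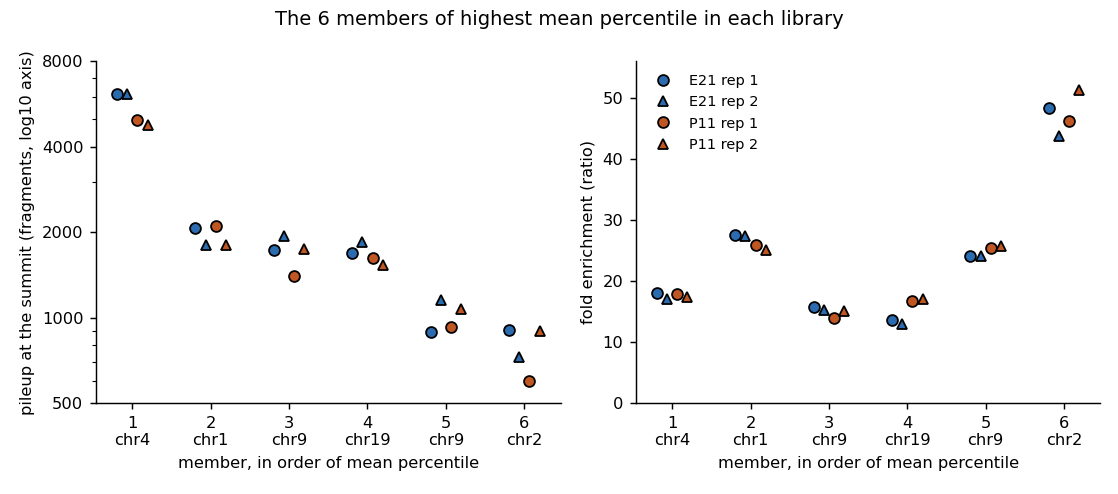
Summit pileup (fragments, log10 axis, left) and fold enrichment (ratio, right) of the 6 members of highest mean percentile, with 1 point per library, colour for stage and shape for replicate. The first member stands at 4759 to 6149 fragments in all 4 libraries, and the sixth has the highest fold, at 43.7 to 51.3, in all 4.

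Taking from each chromosome the member whose percentile varied least over the libraries, the smallest ranges were those of these members, apart from the fifth (which shares chromosome 9 with the third), and then of chr8:72493901-72494942. The chr8 member had a fold of 20.1 and 18.7 at E21 and 18.5 and 18.5 at P11, within a percentile range of 0.007. A percentile is bounded at 100, which limits the range at the top of a list. The median stage difference in percentile was 0.33 points in the strongest 10% of the members and 3.29 points in the weakest 10%.

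Across all members the percentile varied by a median of 5.25 points over the 4 libraries, and by at most 20.03. The stage means differed by under 5 points in 14987 members (77.6%) and by under 2 points in 8916 (46.2%). The rank was higher at P11 in 10375 members, higher at E21 in 8941 and equal in 1. The background for the rule is that 47.9% of all regions called in 4 libraries had stage means under 10 points apart, and that 93.9% of the 20564 regions under 2000 bp at percentile 75 or more did. The room for a difference was limited by the rule, since between percentile 75 and 100 the largest possible difference is 25 points.

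The 1247 strong compact regions 10 points or more apart, which are not members, were higher at P11 in 744 cases and higher at E21 in 503, and their largest difference was 21.1 points. The members nearest inside the limit were 9.996 points apart. One of them, chr13:51229663-51230724, stood at percentiles 85.2 and 84.3 at E21 and 95.3 and 94.2 at P11. The others were chr8:36712572-36713268, at 79.9 and 87.1 against 90.01 and 97.0, and chr8:106449006-106449836, at 76.9 and 85.7 against 90.5 and 92.1. Nearest outside was chr8:110673940-110674950, at 89.4 and 91.3 at E21 and 78.3 and 82.4 at P11. The other two were chr1:221266223-221266834, at 93.4 and 95.6 against 83.8 and 85.3, and chr1:41033646-41034915, at 77.1 and 85.6 against 92.5 and 90.2. The size of the stage difference was thus nearly equal on the 2 sides of the limit, but its direction was not the same. The members nearest inside were higher at P11, whereas chr8:110673940-110674950 and chr1:221266223-221266834 were higher at E21. At the limit of percentile 75, the lowest member values were 75.007 in P11 replicate 1 for chr4:27850933-27851717 and 75.010 in E21 replicate 1 for chr11:9959930-9960813, both chosen after the values were seen.

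Holding the same rank did not mean holding the same enrichment. The median fold of the members was 13.5 (replicate 1) and 13.1 (replicate 2) at E21 but 9.61 and 10.0 in P11 libraries, or 13.3 ± 0.29 against 9.82 ± 0.30 (mean ± SD, n = 2 libraries per stage). Both P11 medians lay below both E21 medians. Within single members the median difference was −0.40 on the log2 scale, P11 minus E21, against −0.30 over all regions called in 4 libraries. In 15858 members (82.1%) both E21 libraries had a higher fold than both P11 libraries, where 54.9% of all regions called in 4 libraries did. In 306 members (1.58%) both P11 libraries were the higher ones, where 12.6% of all regions were. In the other 3153 (16.3%) the stages overlapped. The rule removed regions whose rank changed by 10 points or more in either direction, which bears on both shares by construction. Of the 9936 regions gaining 25 points or more in rank at P11, 7624 had the higher fold in both P11 libraries. Of the 7017 regions losing 25 points or more, 6999 had the higher fold in both E21 libraries. In the strong compact regions 10 points or more apart the shares were 51.5% for E21 and 15.8% for P11. In strong regions of 2000 bp or more they were 66.5% and 3.59%. The members were thus unchanged between stages in rank, not in fold, and the name by rank is used here in that sense.

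**Figure D2:**
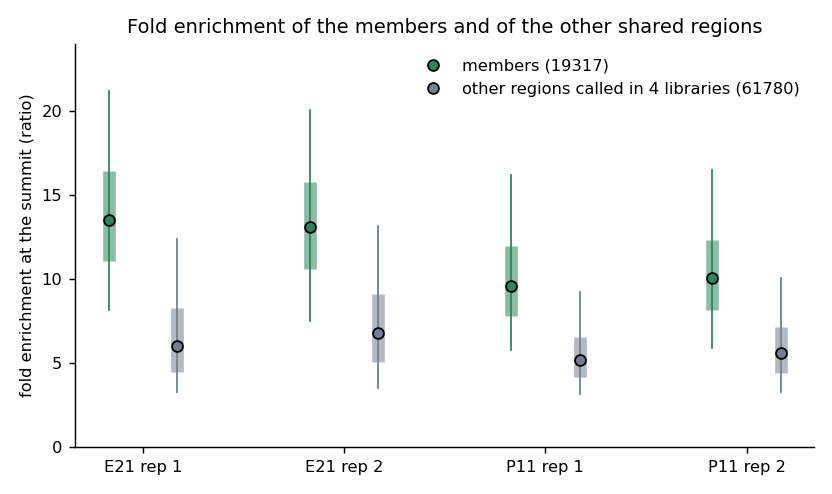
Fold enrichment at the summit (ratio) in each library for members and for the other regions called in 4 libraries. Points are medians, thick bars run from the 25th to the 75th percentile and thin bars from the 5th to the 95th. The members have medians of 13.5 and 13.1 at E21 and 9.61 and 10.0 at P11, and the other regions have 6.03 and 6.81 at E21 and 5.15 and 5.61 at P11.

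The other measures of signal differed in the same direction. A fold and a p value together give the number of fragments at the summit, and the median pileup of the members was 158 and 167 fragments at E21 against 91 and 93 at P11. The genome-wide background, which is proportional to the depth of a library, was 4.80 and 5.03 fragments at E21 against 4.30 and 4.17 at P11. Divided by it, the median pileup was 32.9 and 33.2 times the background at E21 against 21.2 and 22.3 times at P11, a ratio between stages of 1.52. For the other regions called in 4 libraries the medians were 8.74 and 10.7 at E21 against 8.14 and 8.88 at P11, a ratio of 1.14. The median −log10 q of the members was 116 and 119 at E21 against 54.6 and 57.4 at P11. Percentile 75 itself stood at a −log10 q of 42.4 and 42.7 in the E21 lists and of 21.7 and 23.4 in the P11 lists, so the same percentile marks a lower value at P11. The lists carry no read totals and no spike-in. A difference in how enriched the libraries of a stage were as a whole cannot be told apart from a difference at the members.

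The replicate spread was smaller than the stage difference. Between the 2 libraries of a stage, the log2 fold of a member differed with an SD of 0.20 at both E21 and P11. An SD of 0.14 would follow from this for the stage difference of a single member, and the observed SD over members was 0.26. The observed SD was 1.85 times the one from replicates, against 2.10 times over all regions called in 4 libraries. The excess was thus not particular to the members. The quartiles over the members were −0.59 and −0.23. On each of the 20 chromosomes the median was below 0, from −0.44 on chromosome 17 to −0.36 on chromosome 10.

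The stage difference in fold was smaller in the strongest members. The members were divided into 10 groups of equal size by mean percentile. In the weakest group, at mean percentiles of 76.8 to 83.6, the median log2 difference was −0.45, with medians of 10.5 and 10.4 at E21 and 7.37 and 7.73 at P11. It was −0.46 in the fifth group, −0.36 in the eighth, and −0.27 in the strongest group, where the medians were 18.7 and 17.1 at E21 against 14.7 and 14.8 at P11. Local background moved with it. In the weakest group the lowest local background over the 4 libraries was 1.25 times the genome-wide level at the median, and in the strongest group it was 3.56 times.

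Grouped by that background, the median difference was −0.50 in the 2280 members at the genome-wide level, −0.44 in the 8669 above it and up to 2 times, −0.35 in the 6595 at 2 to 4 times, −0.28 in the 1673 at 4 to 8 times and −0.20 in the 88 at 8 to 16 times. Members with a lower local background therefore had the larger difference. That background was itself higher in wider members, at a median of 1.15 times under 500 bp and 2.99 times at 1500 bp or more. It is also the denominator of the fold, and how far a member's own reads enter it was not tested. Whether strength or local background goes with the difference on its own was not tested. Width followed the same order, from −0.49 in the 485 members under 500 bp to −0.29 in the 1982 members of 1500 bp or more.

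**Figure D3:**
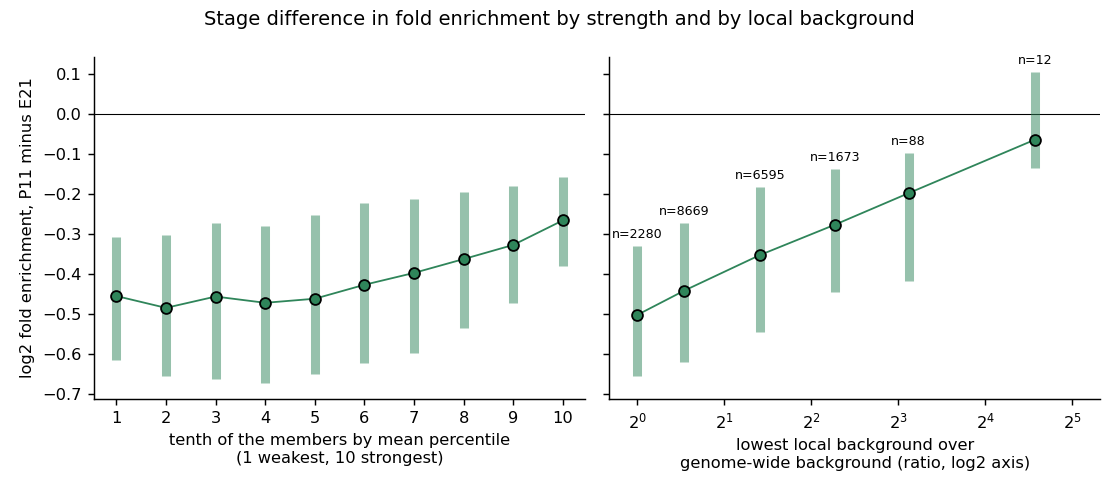
Log2 fold enrichment, P11 minus E21, by group of mean percentile (left, 10 groups of equal size) and by the lowest local background over the 4 libraries, relative to the genome-wide level (right, log2 axis). Points are medians and bars run from the 25th to the 75th percentile of the members. The median goes from −0.45 in the weakest to −0.27 in the strongest group, and from −0.50 at the genome-wide background to −0.06 in the 12 members at 16 times or more.

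In 12 members the local background was at least 16 times the genome-wide level in all 4 libraries, a limit chosen after the values were seen. Of these 12, 6 lay on chromosome 4 in 2 short stretches, 4 on chromosome 9, 1 on chromosome 13 and 1 on chromosome 19. Their median log2 difference was −0.06, with both P11 libraries higher in 3 and both E21 libraries higher in 3. Without them the median of the members remained −0.40. The part of excess mapping in these values was not tested, and a list of such stretches for rn6 was not used here, so their pileups and folds may not measure open chromatin alone. On chromosome 4, chr4:77446345-77446609 and chr4:77452697-77453335 flank the strongest member. The second of these had the largest gain in fold of all members, from 2.37 and 3.28 at E21 to 7.72 and 8.39 at P11, a log2 difference of 1.53. Its percentiles were 88.6 and 97.5 at E21 against 99.991 and 99.994 at P11, and its local background fell from 65.2 and 57.7 to 44.0 and 45.3 times the genome-wide level.

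The second stretch held chr4:146538693-146539056, chr4:146542619-146543583 and chr4:146546866-146548673. The middle one had a fold of 7.04 and 6.56 at E21 and 7.57 and 6.31 at P11, with overlapping stages. The chromosome 9 members were chr9:8281425-8282179, chr9:8282657-8283499, chr9:8376303-8377549 and chr9:8378327-8378870.

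The largest losses and gains in fold among the other members, also chosen after the values were seen, lay within a rank difference of under 10 points. The 2 largest losses were on chromosome 17. For chr17:10875809-10876712 the fold was 15.7 and 13.5 at E21 against 6.06 and 4.60 at P11, a log2 difference of −1.47. For chr17:10803158-10804402 it was 17.8 and 13.1 against 5.85 and 5.29, a difference of −1.46. Both had more local background at P11, the first with 2.70 and 3.26 times the genome-wide level at E21 and 4.03 and 4.72 times at P11. The third, chr1:221167544-221168389, went from a fold of 22.4 and 19.6 to 8.19 and 7.96 and from a pileup of 517 and 436 to 191 and 175 fragments, but kept percentiles of 99.7 and 99.6 at E21 and 97.3 and 97.0 at P11. The largest gain outside chromosome 4 was at chr10:74889141-74890093, from 6.96 and 8.36 to 11.5 and 12.2, where the pileup was 156 and 178 at E21 against 152 and 139 at P11. The next was chr19:32187839-32189585, from 7.06 and 5.91 to 8.97 and 10.2, with pileups of 193 and 186 at E21 and 134 and 128 at P11. In both gains the fold was higher at P11 while the unscaled pileup was not, and the local background was lower at P11. Since these pileups are not scaled for depth, they do not by themselves show less signal at P11.

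The members made up a small part of each list and a large part of its top. They held 16.1% and 12.98% of the OCRs of the E21 lists and 13.2% and 12.2% of those of the P11 lists, and 28.7%, 24.3%, 24.1% and 22.6% of the base pairs in the same order. Of the OCRs at percentile 75 or more, 62.7% and 50.96% at E21 and 50.9% and 47.2% at P11 were in members. E21 replicate 1, the shortest list, had the highest of each of these shares. In every library a single OCR made up 96.2% to 98.0% of the members.

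The members spanned 19.97 Mb in all, with widths from 235 to 1999 bp and a median of 991 bp, against 709 bp for all regions called in 4 libraries. Only 418 strong regions were 2000 bp or wider and so fell outside. The median width of the members' OCRs was 802 and 878 bp at E21 against 842 and 854 bp at P11, or 840 ± 53.7 bp against 848 ± 8.49 bp. The difference of 8 bp is below the spread between the E21 replicates, and its sign depended on the library, at −27.0 bp without E21 replicate 1 and 44.0 bp without E21 replicate 2. The narrowest member, chr20:46083690-46083924, chosen after the values were seen, had a high fold in each library, at 29.1 and 25.2 at E21 and 30.2 and 29.0 at P11, on a background at the genome-wide level.

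The position of the summit, the base of highest coverage, was not used to choose the members. Between the 2 libraries of a stage, the summits of a member were a median of 10.0 bp apart at E21 and 18.0 bp at P11. Between an E21 and a P11 library they were 20 to 24 bp apart over the 4 pairs. The cross-stage mean of 22.0 ± 1.83 bp exceeded the same-stage mean of 14.0 ± 5.66 bp by 8 bp (exact permutation test over the 3 pairings of the libraries, two-sided p = 0.3333, the smallest this design can give). The P11 replicates were thus nearly as far apart as the stages were. The difference was 3.50 bp without E21 replicate 1, 4 bp without E21 replicate 2 and 12.5 bp without P11 replicate 2. In all regions called in 4 libraries the same-stage mean was 28.5 bp and the cross-stage mean 41.0 bp, and in the 418 strong regions of 2000 bp or more these were 20 and 55.5 bp. The 1247 strong compact regions 10 points or more apart gave 17.0 and 29.0 bp.

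**Figure D4:**
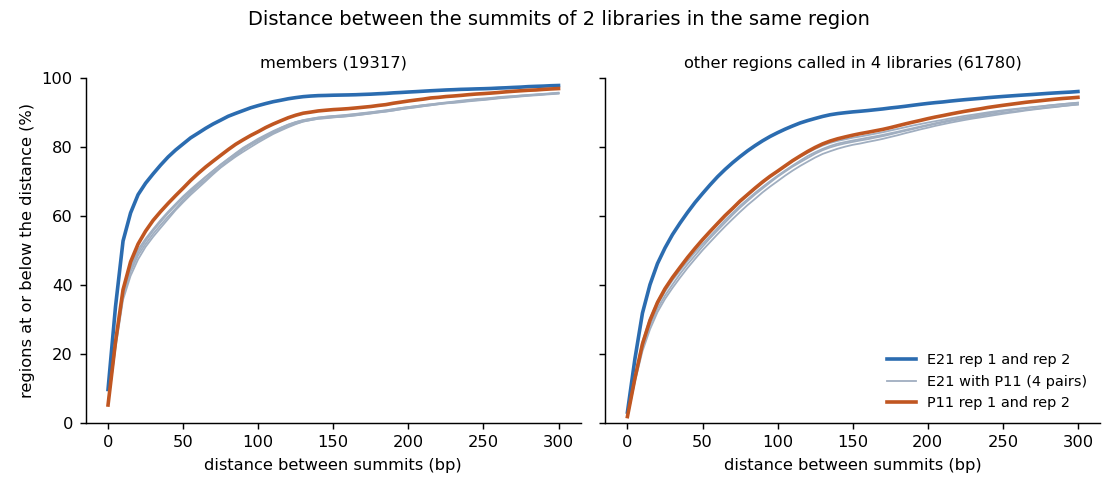
Share of regions (%) whose summits in 2 libraries lie at or below a distance (bp), for members (left) and the other regions called in 4 libraries (right). Blue and orange lines are the E21 and P11 replicate pairs and grey lines the 4 cross-stage pairs. At 20 bp the members reach 66.2% for the E21 pair, 51.9% for the P11 pair and 47.4% to 50.3% for the cross-stage pairs.

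All 4 summits of a member lay within a median of 64.0 bp, against 104 bp for the other regions called in 4 libraries, and the members had the smaller median on 20 of 20 chromosomes. The 1247 strong compact regions 10 points or more apart stood nearer to the members, at 74 bp. In 2459 members (12.7%) the 4 summits lay within 10 bp, against 7.86% of these 1247 regions and 3.28% of all the other regions. In 61 members (0.316%) the 4 summits fell on 1 base, against 0.0227% of the other regions. Of these 61, besides the chr1 member above, chr3:92968552-92969552 had its summit 506 bp from its start in every library, with folds of 20.9 and 20.4 at E21 and 18.7 and 19.7 at P11. Another, chr19:37794773-37795873, had it 558 bp from its start, with pileups of 719 and 725 at E21 and 358 and 279 at P11. Its summit stayed while its pileup was lower in both P11 libraries. Pileup at the summit was higher in members, and the closeness of summits was greater in stronger members, with a median range of 80.5 bp in the weakest of the 10 groups and 36.0 bp in the strongest. The part of coverage in this closeness was not tested.

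In 509 members (2.63%, 95% Wilson interval 2.42% to 2.87%) the summits lay within 50 bp in each stage but 150 bp or more apart between stages, near the 2.44% of all regions called in 4 libraries. These members were wider, at a median of 1199 bp, than the 10532 whose summits agreed within each stage and did not lie apart, at 964 bp. Their summits were a median of 265 bp apart between stages, with quartiles of 205 and 400 bp. The share was 0.699% (25 of 3574) at 500 to under 750 bp and 5.05% (100 of 1982) at 1500 bp or more. In chr19:56337672-56339361 the summit was 1190 and 1187 bp from the start at E21 and 961 and 966 bp at P11. In chr4:146546866-146548673 it was 1253 and 1266 bp from the start at E21 and 771 and 779 bp at P11. In chr1:170238607-170239725, with folds of 16.5 and 16.5 at E21 and 17.0 and 17.0 at P11, it lay at 343 and 385 bp at E21 and at 628 and 640 bp at P11. These 3 members kept their rank, while the point of highest coverage differed by stage. The chr19 and chr4 members are among the 12 of high local background above, whose pileups may not measure open chromatin alone.

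The members were spread over the genome. They made up 21.5% (95% Wilson interval 20.1% to 22.9%) of the regions called in 4 libraries on chromosome 13, the lowest share, and 26.1% (25.1% to 27.0%) on chromosome 1, the highest, with 25.9% on chromosomes 12 and 20. Per megabase, chromosome 12 held the most, at 10.6, and chromosome 2 the fewest, at 5.80.

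The nearest other member was a median of 30.04 kb away, and 18.4% of the members (17.8% to 18.9%) lay within 10 kb, against 17.5% of the other regions called in 4 libraries. Chromosome 20 had the highest share, at 26.7%, and chromosome 15 the lowest, at 13.7%. Regions of any strength were counted in the same way. Of the members, 54.7% lay within 10 kb of another region called in 4 libraries, against 63.8% of the other regions.

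A region called in both libraries of 1 stage and neither of the other is called stage-specific here. Such a region lay within 10 kb of 33.8% of the members (33.2% to 34.5%) and of 41.8% of the other regions called in 4 libraries, and the share for the members was the lower one on 20 of 20 chromosomes. For the 17102 E21-specific regions the shares were 12.8% and 17.3%, and for the 28103 P11-specific regions 24.4% and 29.9%. The regions gaining 25 points or more in rank at P11 had a P11-specific region within 10 kb in 32.2% of cases, and those losing 25 points or more had an E21-specific one in 18.2%. The 1247 strong compact regions 10 points or more apart stood between the members and the other regions in this measure, at 37.2% (34.6% to 39.9%). The 418 strong regions of 2000 bp or more stood below the members, at 28.7% (24.6% to 33.2%), so the lower share was not particular to the members. These intervals cover counting error only, and no test was made over regions, which are not replicates.

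**Figure D5:**
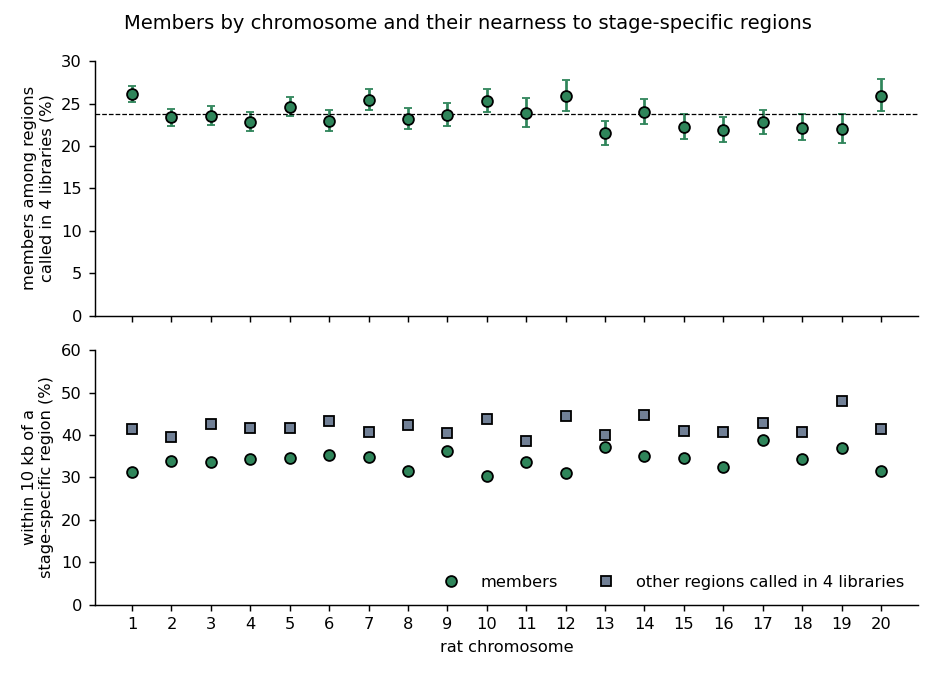
Members as a share (%) of the regions called in 4 libraries on each rat chromosome, with 95% Wilson intervals and the genome-wide share of 23.8% as a dashed line (top), and the share (%) of members and of the other regions within 10 kb of a stage-specific region (bottom). The members lie below the other regions on 20 of 20 chromosomes.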

How the data were processed

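RGCs from 2 litters per stage were profiled by ATAC-seq. The authors mapped the reads and called OCRs in each library separately with the ATAC-seq Integrative Analysis Package. The submitters' processing notes name MACS2 and Rnor_6.0 (rn6), and versions are not given in the sources used here. Each deposited list gives a score (the −log10 q value times 10, rounded down, not used), the fold enrichment at the summit (a ratio to the local background), and −log10 p and q values, which are the authors' own. The lowest deposited −log10 q was 2.01, so the limit was q = 0.01. Reads per region are not part of the lists, and the authors' differential test was not rerun.

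Duplicate lines were dropped, OCRs were ranked and merged as the report states (overlap of at least 1 bp), and a region took the best OCR of each library. The pileup was solved from the fold and the −log10 p value and was whole within 0.01 in 100% of OCRs. Positions are 1-based on rn6. Scripts used Python 3.11.15, numpy 2.4.6, pandas 2.3.3 and scipy 1.17.1 and were tested on simulated data. Groups came from the sample titles. The members and lists were chosen with earlier results of these data known. Named regions were the 6 members of highest mean percentile, the 3 nearest on each side of 10 points and the 6 smallest percentile ranges, taking 1 member per chromosome. Others were chosen after their values were seen. Start sites, motifs, sequences and marker genes need a genome or annotation of rn6, which was not used here, and were not analysed. Alternatives were other limits of percentile, width and stage difference, ranking by fold, other OCR sets, merging and distances, chromosome X, each library left out and a replicate block. Intervals are 95% Wilson intervals.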

Additional observations from a re-analysis of the deposited data

Results flagged for a closer look

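Chromosome X was outside the comparisons above. There 369 of 1328 regions called in 4 libraries met the same rule (27.8%, 95% Wilson interval 25.4% to 30.3%). Their median log2 fold difference, P11 minus E21, was −0.37.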

How the results depend on the processing

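The number of members was 9853 at widths under 1000 bp and within 1.5 times of 19317 under the other 13 alternatives, and 19214 to 21548 with each library left out. Ranked by fold there were 17355 members, and 15162 regions were members both ways (78.5% of those reported, 87.4% of the alternative). The log2 fold difference remained below 0 under all 14 alternatives. It moved beyond the replicate spread at widths under 1000 bp (−0.47), with E21 libraries left out (−0.44 to −0.36 over the 4 libraries) and, as an alternative chosen after seeing the data, with the pileup over the genome-wide background (−0.58). The summit difference remained above 0 (3.50 to 12.5 bp), and the width difference ranged from −27.0 to 44.0 bp.

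The shares near other regions followed the limits. Within 10 kb of another member the share was 16.03% at percentile 80, 20.7% at 70, 11.9% at widths under 1000 bp, 14.2% under 5 points, 12.6% ranked by fold, 16.02% for equal numbers of top OCRs, 17.0% at a −log10 q of 5, and 18.6% to 19.8% with a library left out. It was 6.87% within 5 kb and 67.1% within 50 kb. Near a stage-specific region the shares were 32.7%, 34.7%, 36.5%, 32.6%, 30.4%, 29.4% and 30.3% in the same order of settings, 43.7% to 47.5% with a library left out, and 17.4% within 5 kb and 84.2% within 50 kb. Leaving out a library loosens the definition of stage-specific by construction. The cause of the other moves was not tested.

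In the labels, same-numbered libraries share only a number, and whether they were prepared together is not stated. Their percentile deviations from the stage means correlated at r = 0.11 over the members and 0.03 over all 81097 shared regions. With the replicate block, which asks each same-numbered pair to be under 10 points apart, 17361 members remained, the log2 fold difference was −0.40, the summit difference 8 bp, the width difference 10.0 bp, the share within 10 kb of another member 16.8% and that near a stage-specific region 33.3%. The planned shares at start sites and with CTCF motifs were not run. With 2 libraries per stage the exact test of summit distances could not pass a threshold. Depth was taken here from the background of the lists, since read totals per library were not used here.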
